A study of Mus musculus with 11 samples.

Results

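A set of 31 genes of fatty acid oxidation and of the targets of the receptor PPAR-alpha was followed by RNA sequencing in mouse small intestine. The members were found by gene symbol in the table of all libraries, where all 31 were present among 24250 symbols, and all 31 passed the filter on low values that left 10296 genes for testing. They were chosen with earlier results of these data known, so member counts beside shares of all tested genes are a description. The set holds genes of carnitine supply, the carnitine shuttle, the acyl-CoA dehydrogenases, the later steps of the mitochondrial spiral, the auxiliary enzymes for unsaturated chains and electron transfer. It also holds peroxisomal genes, a pair of acyl-CoA thioesterases, a ketone body enzyme and 4 PPAR-alpha targets of other function. The 3 groups were FSP, mice that received a herbal powder containing the fungus Poria (4 libraries), HFD, read as high-fat diet (4 libraries), and ND, read as normal diet (3 libraries). Which diet the FSP mice ate is not in the labels. They state no genotype, strain, sex, age, dose, duration, stretch of intestine or batch for any group. The labels also do not tie libraries to separate animals, so the p-values refer to variation among samples that may be technical in part.

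Mitochondrial fatty acid oxidation shortens an acyl chain by a pair of carbons per turn, and long chains reach the mitochondrial matrix as carnitine esters. Very long chains are first shortened in peroxisomes. PPAR-alpha, a nuclear receptor activated by fatty acids, binds DNA as a dimer with RXR and raises many of these genes in fasting liver and in the intestine of animals fed fat. Absorptive cells of the small intestine both oxidise dietary fatty acids and export them in chylomicrons, and levels of such genes differ along the length of the gut.

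The stretches upstream of 4 genes are shown because these were past the threshold in both FSP against HFD and HFD against ND. Each is the RefSeq window of GRCm38.p6, the mm10 build, trimmed to the 250 bases before an annotated transcript start and written 5′ to 3′ on the gene's strand. Capitals mark a stretch closest to the element that PPAR and RXR dimers bind, a repeat of AGGTCA with a 1-base spacer (AGGTCANAGGTCA, searched on both strands). Where several stretches were equally close (2 in Bbox1, 2 in Acot1 and 3 in Pdk4), the one nearest the start is marked. The Bbox1 stretch (chr2:110305726-110305975, minus strand) and the Acot2 stretch (chr12:83987611-83987860, plus strand) came no closer than 3 mismatches. The Bbox1 entry belongs to a start inside the annotated gene (chr2:110264056-110314813), not at its outer end. Those of Acot1 (chr12:84009252-84009501, plus strand) and Pdk4 (chr6:5496279-5496528, minus strand) came no closer than 4.
Bbox1: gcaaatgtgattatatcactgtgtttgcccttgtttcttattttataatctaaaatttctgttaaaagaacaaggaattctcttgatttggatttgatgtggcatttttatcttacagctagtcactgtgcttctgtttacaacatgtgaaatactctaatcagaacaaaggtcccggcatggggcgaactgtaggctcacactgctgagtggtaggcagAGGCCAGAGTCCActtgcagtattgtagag
Acot1: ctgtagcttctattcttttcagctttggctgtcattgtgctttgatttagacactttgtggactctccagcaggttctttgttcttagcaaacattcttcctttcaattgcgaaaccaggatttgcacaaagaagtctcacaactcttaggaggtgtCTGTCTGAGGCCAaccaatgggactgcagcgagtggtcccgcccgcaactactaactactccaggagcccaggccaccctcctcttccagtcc
Acot2: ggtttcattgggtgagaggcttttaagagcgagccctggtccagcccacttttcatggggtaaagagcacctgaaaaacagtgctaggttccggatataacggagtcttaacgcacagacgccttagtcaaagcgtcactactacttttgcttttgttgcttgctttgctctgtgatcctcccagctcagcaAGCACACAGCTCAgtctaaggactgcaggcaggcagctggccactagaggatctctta
Pdk4: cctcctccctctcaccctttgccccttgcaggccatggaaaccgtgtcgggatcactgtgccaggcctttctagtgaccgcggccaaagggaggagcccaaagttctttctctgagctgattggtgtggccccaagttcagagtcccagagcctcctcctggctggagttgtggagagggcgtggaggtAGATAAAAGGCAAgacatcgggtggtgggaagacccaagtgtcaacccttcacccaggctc
Such distances are common. A stretch within 3 mismatches was present in 24.6% of 32851 RefSeq windows of 300 bases around a start, and one within 4 in 79.8%. Over the 27 windows of the 26 members that matched a RefSeq entry, the shares were 29.6% and 85.2%. No entry was matched for Decr1, Vnn1, Angptl4, Crat and Acaa2.

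Within 2 mismatches the motif was found in 2 member windows (7.41%, against 3.86% of all windows), those of Slc25a20 and Etfa, and within 1 mismatch in none (0.554% of all windows). Both are given with their flanks, on the gene's strand, with the match in capitals. The Slc25a20 match (chr9:108662134-108662163, plus strand) lay at bases 6 to 18 after the start. The Etfa match (chr9:55512299-55512328, minus strand) lay at bases -77 to -65 and on the opposite strand.
Slc25a20: ctgaatgtAGGTGAAAGGTCGgcggagccg
Etfa: gcacacccTTACCTTTGCCCTactcccaag
Hadha and Hadhb, which encode both subunits of the mitochondrial trifunctional protein, are transcribed away from each other, and the 272 bases between their starts (chr5:30154981-30155252, plus strand) lie upstream of both. This stretch is shown with its 18 CG pairs in capitals (60.3% G and C, 6.62 CG per 100 bases, against medians of 52.7% and 2.33 over all windows).
Hadha and Hadhb: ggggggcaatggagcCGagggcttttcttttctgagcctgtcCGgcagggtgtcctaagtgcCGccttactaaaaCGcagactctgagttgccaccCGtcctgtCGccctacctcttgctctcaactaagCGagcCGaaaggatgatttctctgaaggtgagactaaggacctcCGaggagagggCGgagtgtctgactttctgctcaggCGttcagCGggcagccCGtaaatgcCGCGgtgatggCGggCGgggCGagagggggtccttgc
Members as a whole had a median of 60.3% G and C and 5.0 CG per 100 bases. A match or its absence is a description of these windows only.

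Libraries held 3.18e+07 to 3.82e+07 fragments, as recovered from the steps between low values, so a gene of 1 kb at 1 FPKM (fragments scaled to gene length and library total) rested on 31.8 to 38.2 fragments. Protein genes of the mitochondrial genome (13) took 12.9% to 21.9% in FSP, 18.1% to 40.4% in HFD and 16.3% to 22.2% in ND of the summed FPKM, with HFD 1 highest. FPKM is relative to the whole library, so a large share of these RNAs lowers all other genes. Markers of position along the gut differed between the groups as list means, but single proximal markers were mixed. Of 15 proximal markers, 11 were tested by limma (adjusted p under 0.05). HFD exceeded ND for 8 of them and was lower for 3, while FSP exceeded HFD for 1 and was lower for 2. All 15 distal markers were tested. HFD was lower than ND for 13 and higher for 0, and FSP exceeded HFD for 9 and was lower for 0. The mean log2(FPKM + 1) of 15 distal markers was 5.32 to 7.14 in FSP, 4.04 to 4.66 in HFD and 6.57 to 7.72 in ND, and that of 15 proximal markers was 4.41 to 4.92 in FSP, 4.96 to 5.53 in HFD and 3.58 to 4.36 in ND. By a two-sided exact permutation test p was 0.0286, the smallest that these group sizes allow, for both lists in FSP against HFD and in HFD against ND (0.0857 adjusted by Benjamini-Hochberg over 15 library-level tests). The summed FPKM of absorptive enterocyte markers was 58548.5 to 90614.2 in FSP, 72703.9 to 83035.5 in HFD and 31624.9 to 53391.1 in ND. As a mean of log2(FPKM + 1), which weights the 20 markers equally, the groups overlapped in part, with 9.65 to 10.05 in FSP, 9.29 to 10.02 in HFD and 8.69 to 9.70 in ND (two-sided exact permutation p = 0.486 in FSP against HFD, 0.2 in HFD against ND and 0.0571 in FSP against ND). Other cell types were present at levels that varied within groups, with an adipocyte marker sum of 77.5 to 556 in FSP, 99.7 to 216 in HFD and 85.6 to 105 in ND. That sum includes Cidec, also a pathway gene below, at 50.6 to 63.9 FPKM in FSP, 51.0 to 84.8 in HFD and 12.2 to 32.2 in ND. Cidec was 53.4 of 77.5 FPKM in FSP 2 and 57.9 of 556 in FSP 4, so its part in the sum differed between libraries. In bulk tissue, fewer cells of a type and less RNA per cell cannot be told apart, and the part of these markers in the results below was not tested.

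In FSP against HFD, members were lower or not distinguished, and none was higher. The 5 that fell were Bbox1, the last enzyme of carnitine synthesis, the long-chain dehydrogenase Acadl, the cytosolic and mitochondrial acyl-CoA thioesterases Acot1 and Acot2, and Pdk4, a kinase that holds pyruvate dehydrogenase off. Their group means in FSP were 0.148 (Bbox1) to 0.56 (Acadl) of the HFD means. By limma on log2(FPKM + 1) with Benjamini-Hochberg adjustment over all tested genes and a threshold of 0.05, 5 of 31 members were lower, where 0.913% of all tested genes were, and 0 were higher, where 2.83% were (3.74% in either direction). At an unadjusted p under 0.05, 10 members were lower and 1, the pantetheinase Vnn1, was higher, together 11 of 31, where 18.7% of all tested genes passed in either direction. Every FSP library lay under every HFD library in 7 members, the 5 above with Etfa and Ucp2 (2.3% of all tested genes), and no member had every FSP library above every HFD library (8.52%, and 10.8% in either direction). The median log2 change was -0.20 over members and 0.12 over all tested genes, and 9 of 31 members were positive against 71.2% of all genes. The member median stayed below 0 under each of 4 other scalings, between -0.10 and -0.35 (rescaling to equal totals and median-ratio scaling). The count of lower members was 2 after rescaling to equal totals or without HFD 3, 3 without FSP 1, FSP 2, FSP 4, HFD 1, HFD 4 or ND 2, and 6 with median-ratio scaling. It was 0 without HFD 1, FSP 1 and FSP 4 together, the libraries with the highest mitochondrial share and the 2 highest adipocyte marker sums.

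In HFD against ND, members moved in both directions. The 9 that rose were Bbox1, Crat, Hadh, Acaa2, Eci1, Acot1, Acot2, Pdk4 and Ucp2, and the 3 that fell were the carnitine transporter Slc22a5, the lipase inhibitor Angptl4 and Vnn1. HFD means were 1.47 (Hadh) to 29.9 (Bbox1) times the ND means among the rises, and 0.226 (Vnn1) to 0.636 (Slc22a5) among the falls. By limma with Benjamini-Hochberg adjustment, 9 of 31 members were higher, where 5.36% of all tested genes were, and 3 were lower, where 15.1% were (20.5% in either direction). Every HFD library lay above every ND library in 9 members (9.28% of all tested genes), which include Etfa and Etfb but not Hadh and Eci1, and below in the 3 that fell (33.6%, and 42.9% in either direction). The median log2 change was 0.11 over members and -0.21 over all tested genes. The sign of the member median depended on scaling: it was -0.01 after rescaling to equal totals and 0.35 with median-ratio scaling, which moved the median of all genes to -0.31 and -0.01. It was also below 0 without HFD 4 (-0.07) or ND 1 (-0.095). Member counts were 5 higher and 3 lower with equal totals, and 13 higher and 2 lower with median-ratio scaling. Without single libraries the count of higher members was smallest without ND 1 (3), followed by HFD 3 and ND 2 (5 each) and HFD 4 (6).

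FSP against ND gave no call among members. By limma with Benjamini-Hochberg adjustment 0 of 31 were higher or lower, where 1.03% of all tested genes were past the threshold in either direction, and at an unadjusted p under 0.05 there were 2 higher (Bbox1 and Eci1) and 5 lower (Slc25a20, Acadl, Acaa1b, Angptl4 and Vnn1), where 14.4% of all tested genes passed in either direction. Log2 changes ran from -1.25 (Acaa1b) to 1.07 (Bbox1), with a member median of -0.01 against -0.07 over all tested genes. Every FSP library was above every ND library in 1 member, Bbox1 (5.57% of all tested genes), and below in 4, Slc25a20, Acadl, Acaa1b and Vnn1 (10.9%, and 16.4% in either direction). A missed threshold does not show equal levels.

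**Figure D1:**
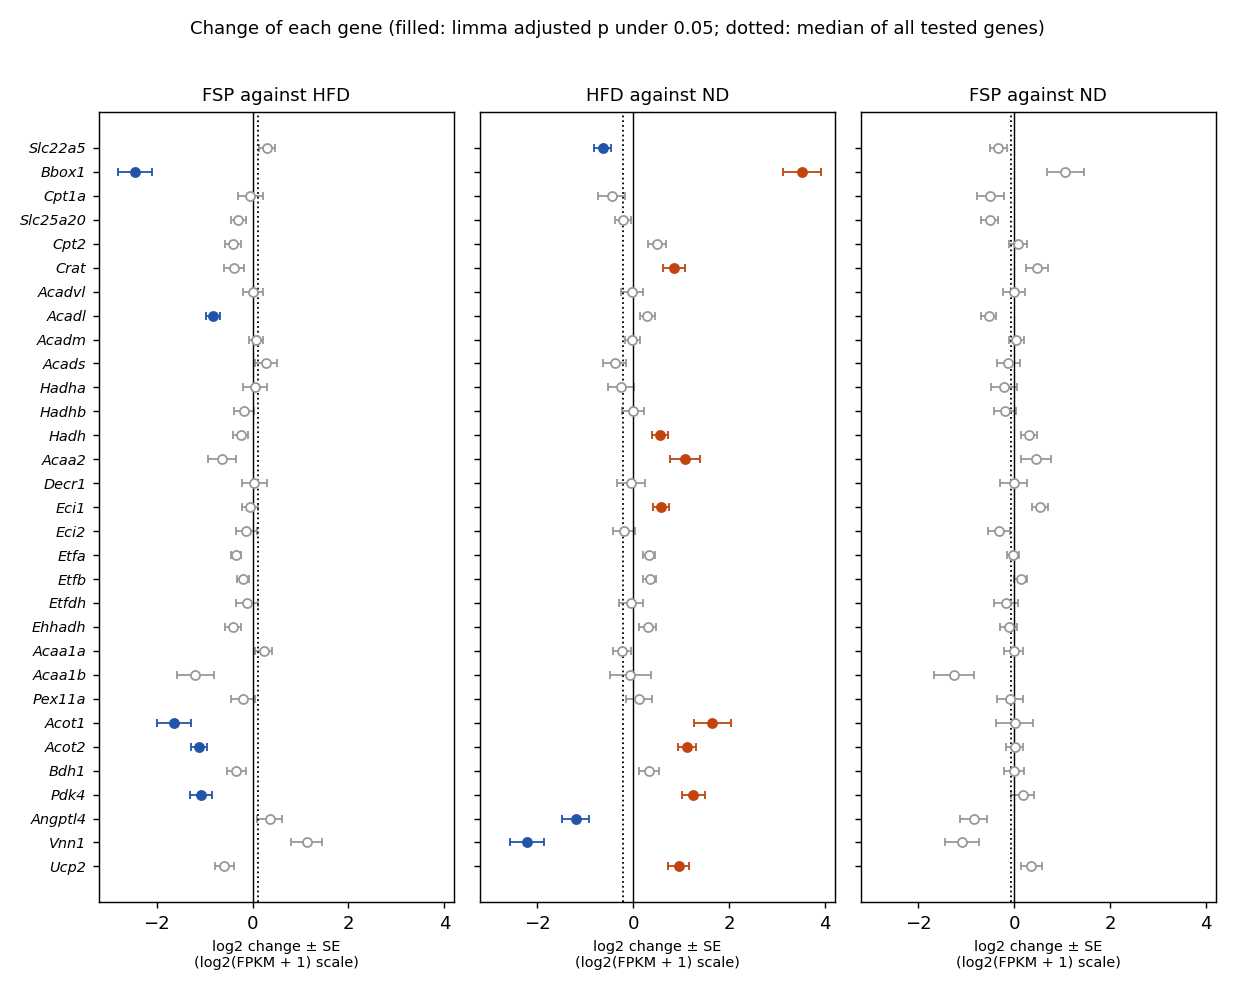
Log2 change of each of the 31 genes with its standard error, on the log2(FPKM + 1) scale, in FSP against HFD, HFD against ND and FSP against ND; filled points are past the limma threshold and the dotted line is the median of all tested genes. In FSP against HFD 5 filled points lie left of 0 and none right, in HFD against ND 9 lie right and 3 left, and FSP against ND has none.

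Calls over the 3 comparisons fell into few patterns. Bbox1, Acot1, Acot2 and Pdk4 were lower in FSP against HFD and higher in HFD against ND. Both comparisons use the HFD libraries, so these opposite signs are not independent of each other. Acadl was past the threshold only in FSP against HFD, 5 members (Acaa2, Crat, Eci1, Hadh and Ucp2) only as rises in HFD against ND, and Slc22a5, Angptl4 and Vnn1 only as falls there. The remaining 18 members were never past it. Group means were highest in HFD and lowest in ND in 13 members, and highest in ND and lowest in HFD in 6 (Slc22a5, Acads, Hadha, Acaa1a, Angptl4 and Vnn1). They were lowest in FSP in 11 and highest in FSP in 1, Acadm. Of all tested genes, 71.2% were positive in FSP against HFD and 28.5% in HFD against ND. Shares of these patterns and orders over all tested genes were not computed, so their counts describe the members only.

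Carnitine carries long acyl chains into mitochondria. It is made by Bbox1 from butyrobetaine and taken up through Slc22a5 (OCTN2). Bbox1 stood at 1.26, 1.85, 5.7 and 1.48 FPKM in FSP, at 18.5, 9.11, 19.5 and 22.5 FPKM in HFD, and at 0.109, 0.524 and 1.11 FPKM in ND. The 3 groups did not overlap, and FSP 3 was the one FSP library well above the others. The log2 change was -2.45 (SE 0.36) in FSP against HFD (limma adjusted p = 0.00956) and 3.52 (SE 0.39) in HFD against ND (limma adjusted p = 0.000628). The FSP mean of 2.57 ± 2.1 FPKM (SD, n = 4) was 4.42 times the ND mean of 0.582 ± 0.505 (SD, n = 3), a log2 change of 1.07 (SE 0.39, limma adjusted p = 0.238). Slc22a5 stood at 20.9, 27.7, 22.6 and 28.6 FPKM in FSP, at 14.8, 19.6, 22.5 and 23.9 in HFD, and at 26.7, 31.3 and 37.3 in ND. All HFD libraries lay below all ND libraries, while FSP overlapped both. HFD against ND gave -0.64 (SE 0.18, limma adjusted p = 0.0293), a call that ended without HFD 1, HFD 2, ND 2 or ND 3 (limma adjusted p = 0.0517 to 0.0979). Median-ratio scaling, quantile normalization and leaving out the filter also ended it. Over the alternatives this change ran from -0.75 to -0.40. In the fit of all libraries, the synthesis gene and the transporter gene of carnitine were thus called in opposite directions in HFD against ND, the latter less firmly.

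The carnitine shuttle comprises Cpt1a, which forms acylcarnitine at the outer membrane, the exchanger Slc25a20, Cpt2, which restores acyl-CoA in the matrix, and Crat, which acts on short chains. Crat stood at 25, 17.6, 30.8 and 24.9 FPKM in FSP, at 29.0, 22.4, 36.0 and 43.5 in HFD, and at 15, 16.9 and 19.8 in ND. Every HFD library was above every ND library, and FSP overlapped both groups. Its log2 change was 0.85 (SE 0.23) in HFD against ND (limma adjusted p = 0.0226), lost without HFD 3, ND 1 or ND 2 (limma adjusted p = 0.0556 to 0.0972). Rescaling to equal totals and leaving out the filter also ended the call of Crat. The other 3 were not past the threshold in any comparison. Cpt1a, often taken as the rate-setting step, spanned 14.1 to 29.7 FPKM in FSP and 13.5 to 32.6 in HFD, a wide range in both, and 28.9 to 31.3 in ND. Cpt2 averaged 44.5 ± 3.46 FPKM in FSP, 60.3 ± 13.3 in HFD (SD, n = 4 each) and 42.8 ± 9.82 in ND (SD, n = 3). Slc25a20, which carries the motif match shown above, was the most even member within FSP, from 68.6 to 72.9 FPKM, below the 84.6 to 125 FPKM of ND in every library.

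The acyl-CoA dehydrogenases open each turn of the spiral, and each prefers a chain length. Acadl, the long-chain enzyme, stood at 106, 107, 126 and 104 FPKM in FSP, at 187, 153, 217 and 235 in HFD, and at 186, 162 and 134 in ND. Every FSP library lay below every library of both other groups, and HFD and ND overlapped. The FSP mean was 0.56 of the HFD mean, with a log2 change of -0.82 (SE 0.15, limma adjusted p = 0.0196), and 0.689 of the ND mean, with -0.53 (SE 0.16, limma adjusted p = 0.161). The first call ended without FSP 4 or HFD 3 (limma adjusted p = 0.0659 to 0.0732), after rescaling to equal totals and with no filter. The very-long-chain, medium-chain and short-chain enzymes Acadvl, Acadm and Acads were past the threshold in no comparison. Acadm averaged 79.8 ± 4.44 FPKM in FSP, 77.3 ± 16.9 in HFD (SD, n = 4 each) and 77.3 ± 10.7 in ND (SD, n = 3), and its log2 change in FSP against HFD was 0.07 with a 95% interval of -0.26 to 0.40. Acadvl spanned 89.2 to 123 FPKM in FSP, 75.4 to 154 in HFD and 87.3 to 126 in ND. Exons of the opposite-strand gene Dvl2 cover 42.9% of the exon bases of Acadvl, and the use of strand in counting is not given in the sources used here, so reads of the pair may not be separated.

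The later steps hydrate, oxidise and cleave the chain. Hadh, the short-chain hydroxyacyl dehydrogenase, was the most abundant member at a mean of 441 FPKM, or 18.1% of the summed mean FPKM of the set. It stood at 407, 427, 461 and 427 FPKM in FSP, at 513, 413, 533 and 613 in HFD, and at 270.0, 352 and 437 in ND. HFD overlapped ND by HFD 2 and ND 3 alone. HFD against ND gave a log2 change of 0.56 (SE 0.17, limma adjusted p = 0.0408), near the threshold and lost without each of 7 libraries (FSP 1, FSP 4, HFD 1, HFD 3, HFD 4, ND 1 or ND 2, limma adjusted p = 0.0543 to 0.174). Equal totals, no filter and only the 2 groups compared also ended the call of Hadh. Acaa2, the mitochondrial thiolase, stood at 129, 90.8, 163 and 138 FPKM in FSP, at 139, 135, 248 and 325 in HFD, and at 71.5, 94.7 and 118 in ND. HFD was split into a lower pair, level with FSP, and a higher pair, and all 4 exceeded ND. Its log2 change of 1.08 (SE 0.31) in HFD against ND had a limma adjusted p of 0.0329, lost without HFD 3, HFD 4, ND 1 or ND 2 (limma adjusted p = 0.0616 to 0.141). After rescaling to equal totals or with no filter the call of Acaa2 was lost too. Hadha and Hadhb, which share the stretch shown above, were past the threshold in no comparison. Hadha was the more abundant by a ratio of 2.99 (HFD 1) to 4.49 (FSP 4), and the ratio averaged 4.12 ± 0.286 in FSP, 3.53 ± 0.404 in HFD (SD, n = 4 each) and 4.17 ± 0.282 in ND (SD, n = 3).

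Unsaturated chains need auxiliary enzymes that move or reduce double bonds. Of Decr1, Eci1 and Eci2, the mitochondrial isomerase Eci1 stood at 78.4, 67.9, 60.2 and 79.0 FPKM in FSP, at 58.8, 77.0, 76.3 and 83.4 in HFD, and at 38.2, 49.1 and 60.9 in ND. Only HFD 1 fell within the ND range, and in FSP only FSP 3 did. HFD against ND gave 0.58 (SE 0.17, limma adjusted p = 0.0358), lost without HFD 2, HFD 3, HFD 4, ND 1 or ND 2 (limma adjusted p = 0.0664 to 0.16). With equal totals, no filter, only the 2 groups compared or the replicate block this call was lost as well. FSP against ND gave a like value of 0.54 (SE 0.17), which did not pass (limma adjusted p = 0.177). Decr1, a dienoyl-CoA reductase, had group means of 45.6 FPKM in FSP, 46.2 in HFD and 45.4 in ND, while single HFD libraries ran from 25.8 to 67.3. Eci2 ran from 12.4 to 27.1 FPKM over all libraries.

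The electron transfer flavoprotein, made of Etfa and Etfb, and its oxidoreductase Etfdh pass electrons from the dehydrogenases to the respiratory chain. In the fit of all libraries none of the 3 was past the threshold. Etfa stood at 22.2, 28.4, 26.7 and 24.1 FPKM in FSP, at 29.5, 33.7, 34.2 and 33.0 in HFD, and at 24.2, 24.6 and 28.4 in ND, so HFD lay above both other groups in every library. Its log2 change was -0.35 (SE 0.11) in FSP against HFD (limma adjusted p = 0.0974) and 0.33 (SE 0.12) in HFD against ND (limma adjusted p = 0.0617). It passed in HFD against ND under 3 other scalings (limma adjusted p as low as 0.00833) and without FSP 2, without HFD 1 or without HFD 1, FSP 1 and FSP 4 together, and in FSP against HFD under 2 other scalings (as low as 0.0221). Etfb, the second most abundant member at a mean of 229 FPKM, averaged 223 ± 29.9 FPKM in FSP, 255 ± 11 in HFD (SD, n = 4 each) and 203 ± 31.9 in ND (SD, n = 3). Etfdh ran from 28.0 to 61.8 FPKM over all libraries.

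Peroxisomal genes gave no call. They are the bifunctional enzyme Ehhadh, the thiolases Acaa1a and Acaa1b, and Pex11a, which acts in peroxisome division. Acaa1b had the widest differences, at 12.3, 8.51, 13.9 and 9.87 FPKM in FSP, 25.4, 12.9, 32.6 and 43.8 in HFD, and 14.3, 28.8 and 49.7 in ND. FSP was low and even, and HFD and ND spread over a like range. The log2 changes were -1.19 (SE 0.39) in FSP against HFD (limma adjusted p = 0.123) and -1.25 (SE 0.42) in FSP against ND (limma adjusted p = 0.195). Ehhadh averaged 41.2 ± 6.62 FPKM in FSP, 55.6 ± 12 in HFD (SD, n = 4 each) and 44.3 ± 5.03 in ND (SD, n = 3). Acaa1a stood at 144 to 170.0 FPKM in FSP, 101 to 172 in HFD and 127 to 189 in ND, and Pex11a ran from 17.4 to 36.9 over all libraries. Acaa1a and Acaa1b share 21.6% of the 100-base windows of the longest Acaa1a transcript, so reads could be split between them.

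Acyl-CoA thioesterases release free fatty acid from acyl-CoA, and this pair had the same calls in both comparisons with HFD. Acot1, the cytosolic enzyme, stood at 2.08, 1.06, 3.62 and 3.32 FPKM in FSP, at 8.86, 4.54, 11.1 and 16.8 in HFD, and at 1.29, 2.98 and 3.02 in ND. Acot2, the mitochondrial enzyme, stood at 2.78, 1.9, 2.29 and 2.52 FPKM in FSP, at 8.29, 4.4, 6.38 and 6.49 in HFD, and at 2.15, 1.98 and 2.92 in ND. For both genes every HFD library was above all libraries of FSP and ND, and FSP and ND covered a like range. Log2 changes of Acot1 were -1.64 (SE 0.36, limma adjusted p = 0.0326) in FSP against HFD and 1.65 (SE 0.39, limma adjusted p = 0.0133) in HFD against ND. Those of Acot2 were -1.11 (SE 0.17, limma adjusted p = 0.00987) and 1.12 (SE 0.18, limma adjusted p = 0.00224). Both pairs of values share the HFD libraries. In FSP against ND the log2 change was 0.01 for both, with 95% intervals of -0.83 to 0.86 for Acot1 and -0.39 to 0.41 for Acot2. The fall of Acot1 ended without each of FSP 1, FSP 2, FSP 4, HFD 1, HFD 3, HFD 4 and ND 2 (limma adjusted p = 0.0567 to 0.093) and its rise without ND 1 (limma adjusted p = 0.0708), whereas the calls of Acot2 held without any single library. The fall of Acot1 also ended after rescaling to equal totals, with no filter and with only the 2 groups compared. Acot1 shares 16.5% of its 100-base windows with Acot2, and part of its reads could be counted for either.

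Bdh1, the mitochondrial enzyme that interconverts the ketone bodies acetoacetate and hydroxybutyrate, averaged 26.6 ± 6.24 FPKM in FSP, 34.0 ± 9.03 in HFD (SD, n = 4 each) and 26.3 ± 0.585 in ND (SD, n = 3) and passed in no comparison. Pdk4, by inhibiting pyruvate dehydrogenase, spares glucose while fatty acids are burned. It stood at 3.31, 3.91, 4.77 and 6.72 FPKM in FSP, at 10.8, 8.39, 11.6 and 12.1 in HFD, and at 2.64, 3.52 and 6.06 in ND. All HFD libraries exceeded all others, and FSP and ND overlapped. Log2 changes were -1.07 (SE 0.23, limma adjusted p = 0.029) in FSP against HFD and 1.25 (SE 0.24, limma adjusted p = 0.00553) in HFD against ND. In FSP against ND it was 0.18, with a 95% interval of -0.35 to 0.72. The first call ended without FSP 1, FSP 2, HFD 1, HFD 3, HFD 4 or ND 2 (limma adjusted p = 0.054 to 0.0895), and the second held without any single library. Rescaling to equal totals and leaving out the filter also ended the first call.

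The other PPAR-alpha targets did not move as one. Angptl4, a secreted inhibitor of lipoprotein lipase, stood at 12.3, 9.06, 4.63 and 11.3 FPKM in FSP, at 7.06, 6.48, 6.66 and 6.47 in HFD, and at 12, 16.3 and 23.2 in ND. HFD was low and nearly flat, with a ratio of 1.09 between its highest and lowest library, and FSP spread to both sides of it. HFD against ND gave -1.20 (SE 0.28, limma adjusted p = 0.0121), and FSP against HFD was 0.36 (SE 0.26, limma adjusted p = 0.493). Vnn1, a pantetheinase of the intestinal brush border that returns pantothenate from the breakdown of coenzyme A, stood at 121, 192, 76.0 and 161 FPKM in FSP, at 61.8, 99.7, 57.0 and 34.2 in HFD, and at 253, 274 and 312 in ND. FSP stood between the other groups and overlapped HFD in FSP 3 and HFD 2. The log2 change was -2.22 (SE 0.35, limma adjusted p = 0.00186) in HFD against ND, 1.13 (SE 0.32, limma adjusted p = 0.0798) in FSP against HFD and -1.09 (SE 0.35, limma adjusted p = 0.166) in FSP against ND. Without FSP 3 or HFD 2 the second value passed the threshold (limma adjusted p as low as 0.0288). The HFD-against-ND calls of Angptl4 and Vnn1 held under all 21 alternatives.

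Ucp2, an inner-membrane carrier found in many tissues, went the other way. It stood at 219, 145, 216 and 213 FPKM in FSP, at 242, 220.0, 340.0 and 413 in HFD, and at 146, 154 and 155 in ND. Every HFD library was above all FSP and ND libraries, although FSP 1 and HFD 2 were nearly level. HFD against ND gave 0.95 (SE 0.22, limma adjusted p = 0.012), lost without ND 1 (limma adjusted p = 0.0531), and FSP against HFD gave -0.59 (SE 0.20, limma adjusted p = 0.14). Among these 4 targets, then, Pdk4 and Ucp2 were higher and Angptl4 and Vnn1 lower in HFD against ND.

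**Figure D2:**
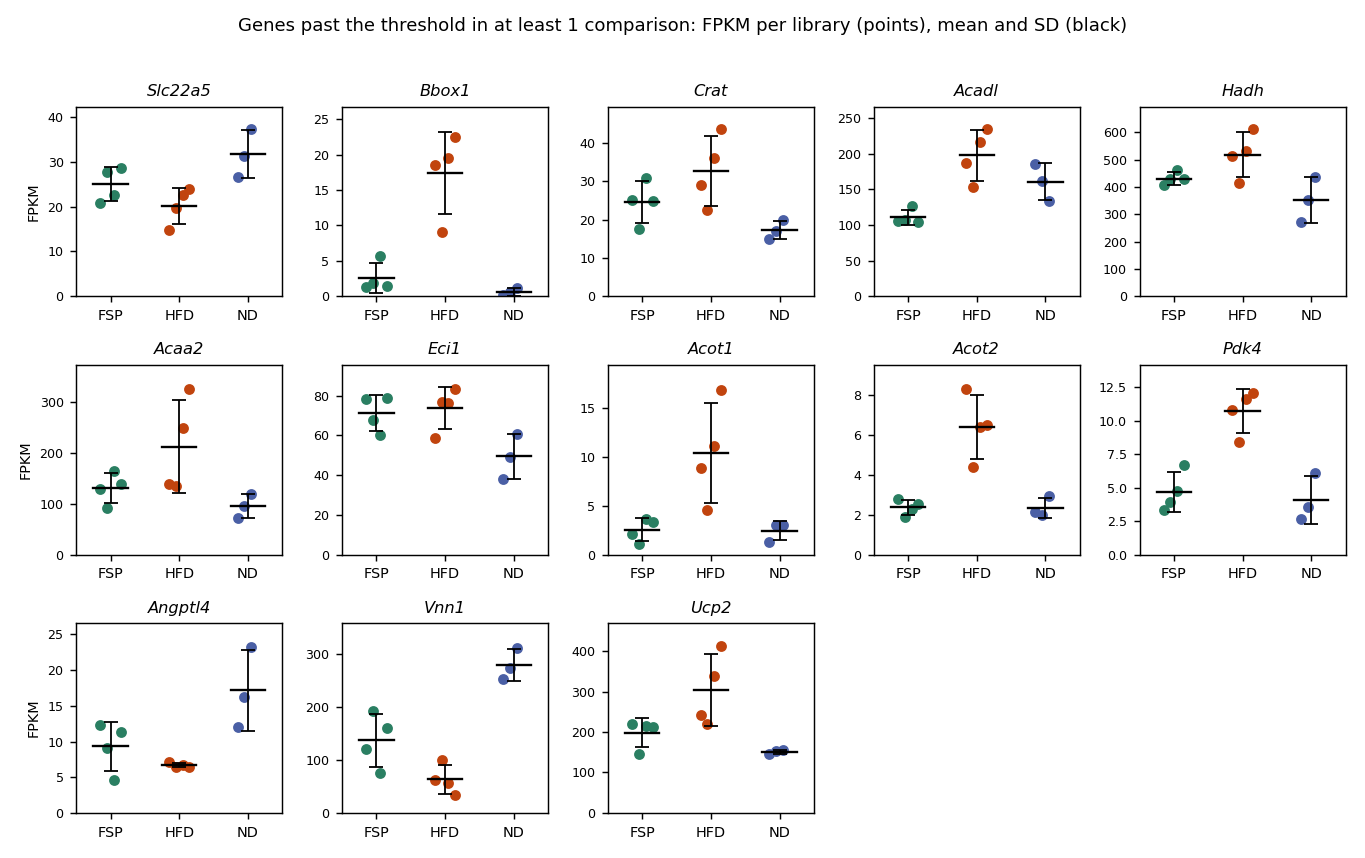
FPKM in each library (points) with the group mean and SD (black) for the 13 genes past the threshold in at least 1 comparison, in FSP (n = 4), HFD (n = 4) and ND (n = 3); each panel has its own axis from 0. For Bbox1, Acot1, Acot2 and Pdk4 all HFD points lie above all FSP and ND points, and for Vnn1 and Angptl4 the HFD points lie below all ND points.

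In HFD and ND, 1 library was highest for most members. HFD 4 was the highest HFD library in 27 of 31 members, as it was in 39.7% of all tested genes, and ND 3 was the highest ND library in 29, against 32.6% of all tested genes. ND 1 was the lowest in 29 (40.0% of all tested genes). FSP 3 was the highest FSP library in 15 (25.6%) and FSP 2 the lowest in 17 (60.0%). The lowest place in HFD was split, with 14 members each for HFD 1 (69.5% of all tested genes) and HFD 2 (11.3%). HFD 4, ND 3 and FSP 3 were also the libraries with the highest level of proximal small intestine markers in their groups (5.53, 4.36 and 4.92 as mean log2(FPKM + 1)), and ND 1 the one with the lowest in ND (3.58). Absorptive enterocyte markers had the same extremes, with HFD 4 (10.02), ND 3 (9.70) and FSP 3 (10.05) highest in their groups and ND 1 (8.69) lowest in ND. Both marker lists hold Lct, Fabp1 and Rbp2, so their levels are not independent of each other. The part of gut position or of enterocyte RNA in the levels of the members was not tested. The median over members of the ratio between the highest and the lowest library was 1.57 in FSP, 1.88 in HFD and 1.40 in ND. Over all tested genes it was 1.58 in FSP, 1.57 in HFD and 1.23 in ND.

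**Figure D3:**
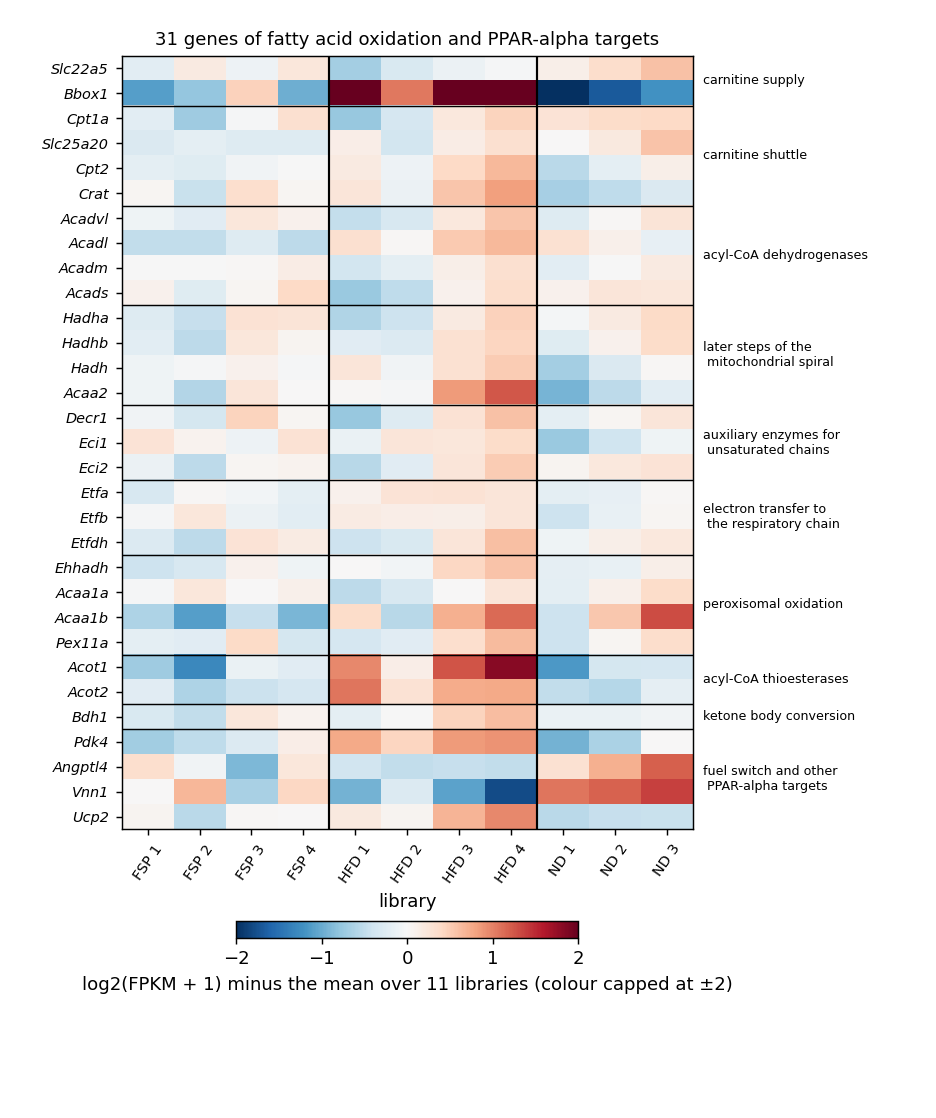
Log2(FPKM + 1) of the 31 genes in each of the 11 libraries, minus the gene's mean over the 11 libraries, with genes in order of their role and colour capped at ±2. HFD 3, HFD 4 and ND 3 are red over most genes, and FSP 1, FSP 2, HFD 1, HFD 2 and ND 1 are blue over most. Vnn1, Angptl4 and Slc22a5 have all ND cells red and HFD cells blue or pale.

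**Figure D4:**
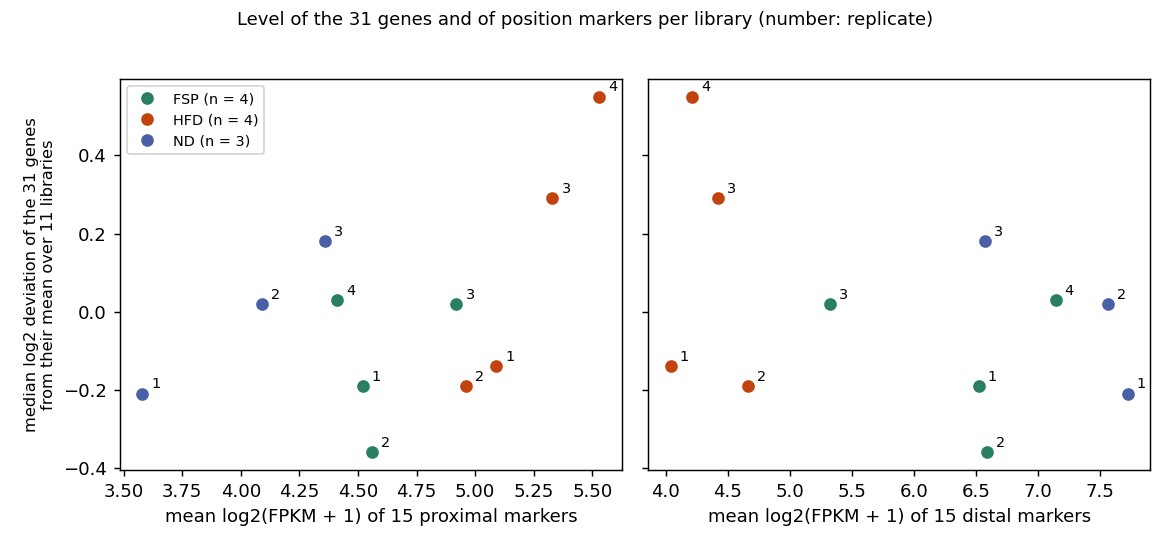
Median over the 31 genes of the log2 deviation from their 11-library mean (vertical) against the mean log2(FPKM + 1) of 15 proximal (left) and 15 distal (right) small intestine markers, 1 point per library with its replicate number. HFD 4 is highest on the vertical axis at 0.55 and has the highest proximal level at 5.53, while HFD 1 and HFD 2 lie at -0.14 and -0.19 with proximal levels of 5.09 and 4.96.

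Beyond the members, 115 other genes of related pathways were listed, of which 97 were tested. These lists were chosen with earlier results of these data known, so counts beside shares of all tested genes are a description, not a test. By limma with Benjamini-Hochberg adjustment 2 were higher (2.83% of all tested genes) and 7 lower (0.913%) in FSP against HFD. In HFD against ND 21 were higher (5.36%) and 14 lower (15.1%), and in FSP against ND 2 were higher (0.699%) and 0 lower (0.33%). Without FSP 4 or HFD 3 the first pair of counts was 0 and 1, without FSP 1, FSP 2, HFD 1, HFD 4 or ND 2 it was 2 and 1 to 4, and without ND 1 or ND 2 the second was 13 and 5 or 6. The first was 1 and 1 with no filter, 0 and 2 with only the 2 groups compared and 0 and 0 without HFD 1, FSP 1 and FSP 4, and the second was 33 and 7 with median-ratio scaling and 33 and 10 after quantile normalization. The monocarboxylate transporter Slc16a6, which exports ketone bodies from hepatocytes in zebrafish, had a log2 change of -1.03 (SE 0.20, limma adjusted p = 0.0242) in FSP against HFD, lost without FSP 1, FSP 2, FSP 4, HFD 1, HFD 3 or HFD 4 (limma adjusted p = 0.0537 to 0.0817). Bdh2, a cytosolic dehydrogenase, averaged 3.6 ± 1.99 FPKM in FSP, 10.2 ± 4.74 in HFD (SD, n = 4 each) and 0.487 ± 0.0844 in ND (SD, n = 3), a rise of 2.82 (SE 0.35, limma adjusted p = 0.000806) in HFD against ND.

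Omega oxidation, which attacks the far end of the chain, held both directions among its 5 tested genes. Cyp4a10, a fatty acid hydroxylase and PPAR-alpha target, stood at 1.49, 0.768, 3.53 and 2.06 FPKM in FSP, at 12.5, 4.27, 29.9 and 37.2 in HFD, and at 0.639, 2.8 and 4.83 in ND. Only HFD 2 fell within the ND range. The log2 change was -2.61 (SE 0.59, limma adjusted p = 0.0363) in FSP against HFD, lost without 7 libraries (FSP 1, FSP 2, FSP 4, HFD 1, HFD 3, HFD 4 or ND 2, limma adjusted p = 0.0648 to 0.105), and 2.36 (SE 0.63, limma adjusted p = 0.0241) in HFD against ND, lost without HFD 3, HFD 4, ND 1 or ND 2 (limma adjusted p = 0.0507 to 0.116). Cyp4a14, another target in liver, was under the filter, listed at 0 in all libraries but HFD 1 and HFD 4, where it stood at 0.019 and 0.00811 FPKM. Cyp4f14, a hydroxylase of the same superfamily, moved the opposite way, with 1.15 (SE 0.23, limma adjusted p = 0.0245) in FSP against HFD, lost without FSP 1, FSP 4 or HFD 3 (limma adjusted p = 0.0544 to 0.0839), and -1.18 (SE 0.25, limma adjusted p = 0.00791) in HFD against ND. The alcohol dehydrogenase Adh7 averaged 0.809 ± 0.740 FPKM in FSP, 3.45 ± 1.08 in HFD (SD, n = 4 each) and 0.275 ± 0.153 in ND (SD, n = 3), a log2 change of -1.34 (limma adjusted p = 0.0206, lost without FSP 4, HFD 3 or HFD 4 at 0.0535 to 0.0734) in FSP against HFD and 1.78 (limma adjusted p = 0.0018) in HFD against ND. Its FSP and ND means were under 1 FPKM, so Adh7 passed the filter only through HFD, the group where it is high. Its calls, which are in the pathway counts above, are therefore not independent of the filter. With no filter the call in HFD against ND held and that in FSP against HFD was lost. Phyh, which opens the alpha oxidation of branched chains in peroxisomes, averaged 262 ± 32.9 FPKM in FSP, 441 ± 63.4 in HFD (SD, n = 4 each) and 236 ± 45.5 in ND (SD, n = 3). Phyh had a log2 change of -0.74 (limma adjusted p = 0.0259, lost without FSP 1, FSP 4, HFD 1, HFD 3 or HFD 4 at 0.0605 to 0.0912) in FSP against HFD and 0.90 (limma adjusted p = 0.00385) in HFD against ND. Its fall was also lost with median-ratio scaling, with no filter and with only the 2 groups compared.

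Slc22a4 (OCTN1), an organic cation transporter related to Slc22a5, stood at 9.26, 7.56, 7.24 and 9.02 FPKM in FSP, at 3.65, 5.74, 4.72 and 4.52 in HFD, and at 8.79, 10.4 and 10.6 in ND. HFD lay below both other groups in every library. The log2 change was 0.72 (SE 0.13, limma adjusted p = 0.0199) in FSP against HFD, lost without FSP 4 or HFD 3 (limma adjusted p = 0.0611 to 0.0732), and -0.95 (SE 0.14, limma adjusted p = 0.00168) in HFD against ND. Among 19 tested further PPAR-alpha targets 10 were higher (5.36% of all tested genes) and 2 lower (15.1%) in HFD against ND and 1 was lower in FSP against HFD (0.913%). Genes of lipid storage and activation were among the rises: the droplet proteins Cidec (1.66, limma adjusted p = 0.00204) and Plin2 (0.92, limma adjusted p = 0.022, lost without HFD 3, ND 1 or ND 2 at 0.0536 to 0.0991), the lipase inhibitor G0s2 (2.35, limma adjusted p = 0.00224) and the acyl-CoA synthetase Acsl3 (1.54, limma adjusted p = 0.00201). Cidec is also an adipocyte marker. Acsl3 and Cidec were the 2 higher in FSP against ND, at 1.27 (limma adjusted p = 0.0344, lost without FSP 1, HFD 3, ND 1, ND 2 or ND 3 at 0.0634 to 0.188) and 1.40 (limma adjusted p = 0.0322, lost without FSP 1, FSP 2, FSP 3, FSP 4, HFD 3, ND 1 or ND 2 at 0.0534 to 0.151). Acsl3 averaged 15 ± 7.04 FPKM in FSP (SD, n = 4) and 5.26 ± 0.383 in ND (SD, n = 3), and Cidec averaged 56.4 ± 5.78 in FSP and 22.2 ± 9.99 in ND.

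The receptors themselves did not share a direction. Ppara stood at 6.26, 3.8, 7.94 and 9.42 FPKM in FSP, at 4.24, 6.11, 9.35 and 10.9 in HFD, and at 3.79, 4.47 and 4.51 in ND. The 3 groups overlapped, and no comparison was past the threshold (HFD against ND 0.65, SE 0.30, limma adjusted p = 0.135, past it with median-ratio scaling). Ppard, the relative most active in gut epithelium, averaged 14.4 ± 2.98 FPKM in FSP, 11.2 ± 2.89 in HFD (SD, n = 4 each) and 24.6 ± 2.01 in ND (SD, n = 3), with -1.10 (SE 0.20, limma adjusted p = 0.00354) in HFD against ND. Pparg, best known from fat cells, stood at 3.24, 2.37, 4.51 and 3.62 FPKM in FSP, at 7.67, 4.4, 6.32 and 9.18 in HFD, and at 2.4, 2.44 and 2.28 in ND. It rose by 1.19 (SE 0.21, limma adjusted p = 0.00365) in HFD against ND, and its -0.81 (SE 0.20, limma adjusted p = 0.0446) in FSP against HFD was lost without any library other than FSP 3 and HFD 2 (limma adjusted p = 0.0659 to 0.116). Rxra, the dimer partner, had -0.68 (SE 0.20, limma adjusted p = 0.0346) in HFD against ND, lost without HFD 1, HFD 2 or any ND library (limma adjusted p = 0.0714 to 0.118) and with median-ratio scaling. The coactivator Ppargc1a ran from 1.84 to 3.63 FPKM over all libraries and passed in no comparison.

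**Figure D5:**
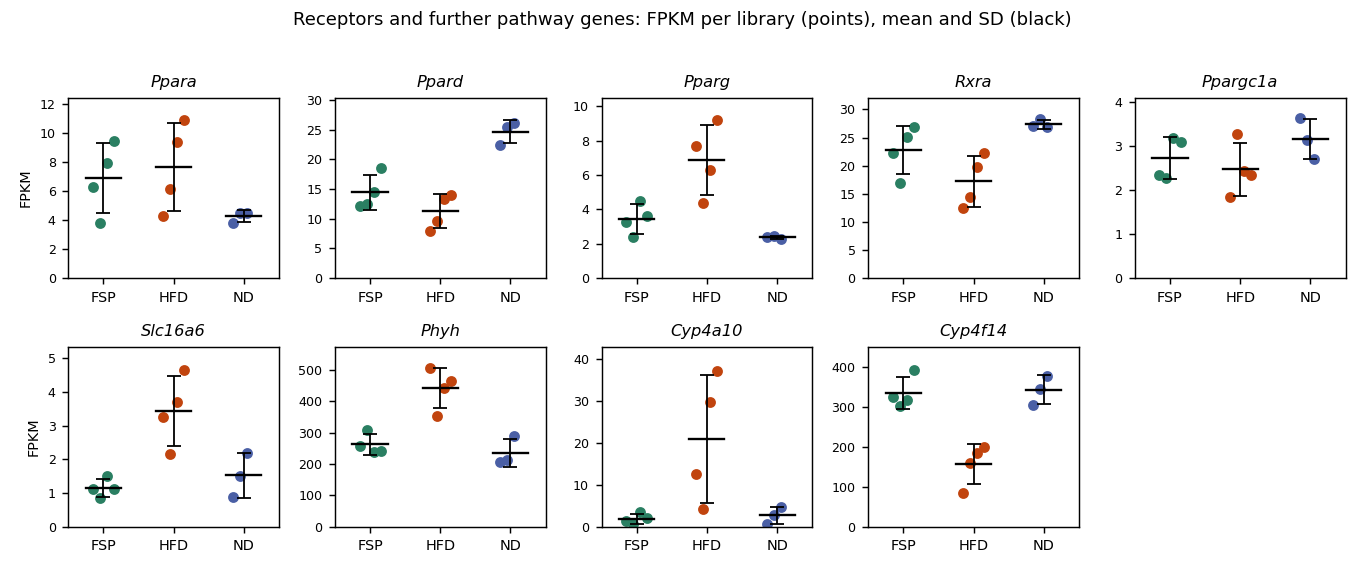
FPKM in each library (points) with the group mean and SD (black) for 4 receptors, the coactivator Ppargc1a and 4 further pathway genes, in FSP (n = 4), HFD (n = 4) and ND (n = 3); each panel has its own axis from 0. Phyh has all HFD points above all others, Cyp4f14 has all HFD points below all others, and the 3 groups of Ppara overlap.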

How the data were processed

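Per the labels, total RNA of intestine (small intestine in the series design) was extracted with TRIzol and made into libraries with a VAHTS Universal V6 kit. Per the submitters' processing notes, fastp, HISAT2, HTSeq and R 3.2.0 were used with the mm10 build; annotation, strandedness of counting and FPKM software: not given in the sources used here. Deposited by the authors were FPKM per library, in 1 table of all libraries and in single-library tables that hold the same values for shared genes. Those of HFD and ND list 685 further genes, all at 0, and lack 641 genes of the joint table, while those of FSP list exactly its genes, so separate tabulation of FSP and its group cannot be told apart.

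Groups and replicate numbers came from sample titles. Tests used limma 3.58.1 (R 4.3.3) on log2(FPKM + 1), with all 3 groups fitted together, a trend of the prior variance on intensity and no covariates, over 10296 genes with a mean of at least 1 FPKM. P-values were two-sided and Benjamini-Hochberg adjusted within a comparison (threshold 0.05). A log2 change on this scale understates changes of low genes; ratios of means are on the FPKM scale. The fit was checked on simulated data. Depth was recovered from 657 single-exon genes, where 73.4% to 78.3% of low values lay within 0.05 of a whole fragment; whole counts could not be rebuilt for all genes, so no count model was used. Library-level values were compared by a two-sided exact permutation test on scipy 1.17.1. Alternatives were another pseudocount (0.1), no filter, 4 other scalings, only the 2 groups compared, no trend, a replicate block, each library left out, and 3 libraries left out together, the last chosen after seeing the data because they hold the highest mitochondrial share and the 2 highest adipocyte marker sums. The members, the pathway lists and the marker lists were chosen with earlier results of these data known. All 31 members are named; members past the threshold in any comparison have a value per library. Of the pathway genes, up to 6 with the smallest p per comparison were named, with Ppara, Ppard, Pparg, Rxra, Ppargc1a, Cyp4a10, Cyp4a14 and Plin2 whatever their values, and some genes that the rule names are not reported here; per-library values of other members (Etfa and Acaa1b) were added after they were seen. Promoter windows are RefSeq's (GRCm38.p6). Sums of other marker lists (FPKM; FSP, HFD and ND) were 87.5 to 805, 126 to 287 and 38.6 to 65.0 for B and plasma cells, 107 to 821, 149 to 592 and 439 to 624 for smooth muscle, 15.3 to 22.3, 13.0 to 16.4 and 16.9 to 27.3 for striated muscle, 6.37 to 14.8, 11.6 to 22.0 and 5.76 to 7.26 for pancreatic acinar cells, 3.49 to 6.64, 6.03 to 12.2 and 4.44 to 4.66 for hepatocytes, 145 to 238, 104 to 182 and 308 to 475 for colon, and 2.33 to 3.56, 1.94 to 3.38 and 2.85 to 4.04 for brown adipocytes; no listed marker found in the table was at 0 in every library.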

Additional observations from a re-analysis of the deposited data

Results flagged for a closer look

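Of 62 groups of 4 libraries (31 members in FSP and in HFD), 3 had a library far from the rest, near the 1 in 20 groups that chance gives. The same count over all tested genes was not made. Bbox1 in FSP 3 stood at 5.7 FPKM, with 1.26, 1.85 and 1.48 in the other FSP libraries, a gap of 0.866 of the range of the group. Acadl in FSP 3 stood at 126 FPKM, with 106, 107 and 104 in the others, a gap of 0.855. Ucp2 in FSP 2 stood at 145 FPKM, with 219, 216 and 213 in the others, a gap of 0.926. FSP 3 also had the highest proximal marker level of FSP (4.92) and the lowest distal level (5.32). Without FSP 3 the log2 change of Bbox1 in FSP against HFD was -2.80.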

How the results depend on the processing

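Directions of called members did not change under any alternative run: of 1953 recomputed member changes 1861 kept their side of the threshold, 69 lost it, 23 gained it, and 0 changes past the threshold reversed. Calls held under all 21 alternatives for Bbox1, Acot2, Pdk4, Angptl4 and Vnn1 in HFD against ND. Among the pathway genes named above, rescaling to equal totals ended the call of Pparg in FSP against HFD. The same scaling ended those of Plin2 in HFD against ND and Acsl3 in FSP against ND. Members that gained a call under some alternative were Etfa, Ehhadh, Acaa1b, Vnn1 and Ucp2 in FSP against HFD, and Cpt1a, Cpt2, Etfa, Etfb, Ehhadh and Bdh1 in HFD against ND. Without HFD 1, FSP 1 and FSP 4 together the calls of Bbox1 (-1.95, limma adjusted p = 0.154) and Acot2 (-1.11, limma adjusted p = 0.0783) in FSP against HFD were lost, with fewer libraries in the fit.

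In FSP against HFD, 291 tested genes were higher and 94 lower. The counts were 86 and 31 with no filter, 231 and 41 with equal totals, 181 and 169 with scaling by median ratios, 249 and 194 after quantile normalization, 163 and 128 without mitochondrially encoded genes, 56 and 20 with only the 2 groups compared, 3 and 1 without the 3 libraries, and 34 to 350 and 14 to 123 without single libraries. Members lower were 5, against 2 with no filter or equal totals, 0 without the 3 libraries and 2 to 6 without single libraries (higher 0 to 1, Vnn1). In HFD against ND, 552 were higher and 1557 lower, against 1095 and 923 with scaling by median ratios, 1125 and 1185 after quantile normalization, and 266 to 639 and 561 to 2049 without single libraries. Members higher were 9, against 5 with no filter or equal totals and 3 to 10 without single libraries (lower 2 to 3). In FSP against ND, 72 were higher and 34 lower, against 25 and 33 with no filter, 126 and 66 with quantile normalization, 75 and 73 without mitochondrially encoded genes, 42 and 29 with only the 2 groups compared, 41 and 26 without the 3 libraries, and 11 to 108 and 2 to 97 without single libraries; members stayed at 0. With the replicate number as a block, counts were 240 and 97, 651 and 1706, and 54 and 23, with members at 0 and 5, 8 and 4, and 0 and 0; Eci1 was lost (0.53, limma adjusted p = 0.0566) and Cpt1a gained (-0.63, limma adjusted p = 0.0446) in HFD against ND. The labels state no pairing by number. Over all tested genes, deviations from the group mean correlated at 0.018 to 0.454 between same-numbered libraries of FSP and HFD. Differently numbered ones gave -0.616 to 0.647. Between FSP and ND the ranges were -0.099 to 0.203 for same and -0.311 to 0.287 for different numbers. Between HFD and ND they were -0.094 to 0.043 and -0.35 to 0.362. The mitochondrially encoded share fell with rising number in each group (21.9% to 12.9% in FSP, 40.4% to 18.1% in HFD, 22.2% to 16.3% in ND). What the numbers stand for was not tested.

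The difference in mitochondrially encoded share was -10.6 percentage points in FSP minus HFD (-13.6 to -6.12 without single libraries), 8.08 in HFD minus ND (3.57 to 11) and -2.55 in FSP minus ND (-4.44 to -0.865). The causes of these changes were not tested. Depth limits genes near 1 FPKM, of which Acot1, Acot2, Pdk4 and, in FSP and ND, Bbox1 come closest among called members. None of the scalings gives absolute levels.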
